A study of Zea mays with 9 samples.

Results

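Transcripts of 8 genes of meiosis and recombination were examined in young maize tassels, the male inflorescences, among the 39305 gene identifiers of each deposited table. The genes were given by identifier. They are afd1 (GRMZM2G059037), sgo1 (GRMZM2G074082), ZYP1 (GRMZM2G143590), Spo11-2 (GRMZM5G890820), Dmc1 (GRMZM2G109618), rad51a (GRMZM2G121543), Rad51A2 (GRMZM2G084762) and Cyclin-SDS (GRMZM2G093157), and all 8 were present in both tables and passed the filter on low counts. RNA was sequenced from field-grown tassels of 2 to 4 mm in the B73 inbred line, with 3 libraries of wildtype, 4 of the ndl1 mutant (needle1, labelled as a mutant of zmftsh10, a gene named for the FtsH family of membrane proteases) and 2 of plants heterozygous for both Bif1 and Bif4 (Bif1;Bif4, the double heterozygote), whose genes encode Aux/IAA repressors of auxin signalling. Per the labels, severely affected tassels were among the ndl1 samples, provided that some axillary meristems had formed. The NDL1 transcript (GRMZM2G038401) ranged from 3194 to 3540 normalized counts in wildtype and from 2954 to 3487 in ndl1, so that its level did not separate the genotypes and the labels were not checked by it. Each library held between 16863087 and 22533736 reads counted to genes, and a library held 155 to 1847 reads for any 1 of the 8 genes. The labels do not state that libraries came from separate plants, and the p-values therefore measure only how these samples spread, possibly for technical reasons.

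Meiosis reduces the chromosome number and takes place in maize tassels inside the anthers, which form after the stage sampled here. Cohesin complexes hold sister chromatids together, and the topoisomerase-like Spo11 proteins cut DNA to start recombination. The recombinase DMC1 coats the broken ends and searches for a matching strand, and ZYP1 proteins then zip the paired chromosomes together in the synaptonemal complex. DMC1 is known as a recombinase of meiosis. Of the anther wall and tapetum markers matched by name, ms23 and ms8 had 0 to 3 reads and ms26 had 3 to 10 reads in a library. The exception was ocl4, a homeobox gene also known from the epidermis, with 1479 to 2659 reads, which was the 1 gene of the 4 that could be tested and fell in Bif1;Bif4 (-0.70 ± 0.10 on the log2 scale, SE). The summed level of the 4 was 2184 to 2593 normalized counts in wildtype, 1628 to 2068 in ndl1 and 1442 to 1578 in Bif1;Bif4. Nearly all of this sum was ocl4, with 17652 reads over the 9 libraries against 8 of ms23, 55 of ms26 and 4 of ms8. The sum therefore does not describe the other anther markers. The gene am1, which maize needs to enter meiosis, had 6 to 20 reads in a library. The 8 genes were thus read in tassels in which these 3 anther markers were at or near 0.

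In ndl1 transcripts of the cohesin subunit AFD1 (gene afd1) and of the recombinase DMC1 (gene Dmc1) rose, by 2.20-fold and 2.36-fold, and the synaptonemal complex gene ZYP1 fell to 0.706 of the wildtype level. In the double heterozygote afd1 alone of the 8 rose, by 1.35-fold. Compared directly, afd1, Dmc1 and Rad51A2 were higher in ndl1 than in the double heterozygote. Genes passed at an adjusted p under 0.05 in limma's moderated test on log2(normalized count + 1), with Benjamini-Hochberg adjustment over all genes tested. In ndl1 against wildtype 2 of the 8 rose, 1 fell and 5 did not pass, where 3.16% of all 22416 genes tested passed, 1.94% rising and 1.22% falling. The groups did not overlap for any of these 3, as for all 3.16%. At an unadjusted p under 0.05 there were 5 of the 8, beside 22% of all genes. In Bif1;Bif4 against wildtype 1 rose, 0 fell by limma (Rad51A2 alone was lower at an unadjusted p under 0.05, and 0 were called lower by edgeR or DESeq2) and 7 did not pass, where 4.28% of 22381 genes passed, 2.23% rising and 2.05% falling. At an unadjusted p under 0.05 there were 3 of the 8, beside 23.3% of all genes. In ndl1 against Bif1;Bif4 3 were higher in ndl1 and 5 did not pass, where 3.47% of 23203 genes passed, 1.79% higher and 1.68% lower in ndl1. At an unadjusted p under 0.05 there were 5 of the 8, beside 18.1% of all genes. The median log2 fold changes of the 8 genes were 0.12, 0.04 and -0.01 in these comparisons, beside 0.00 for all genes tested in each. The comparisons with wildtype share its 3 libraries.

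**Figure D1:**
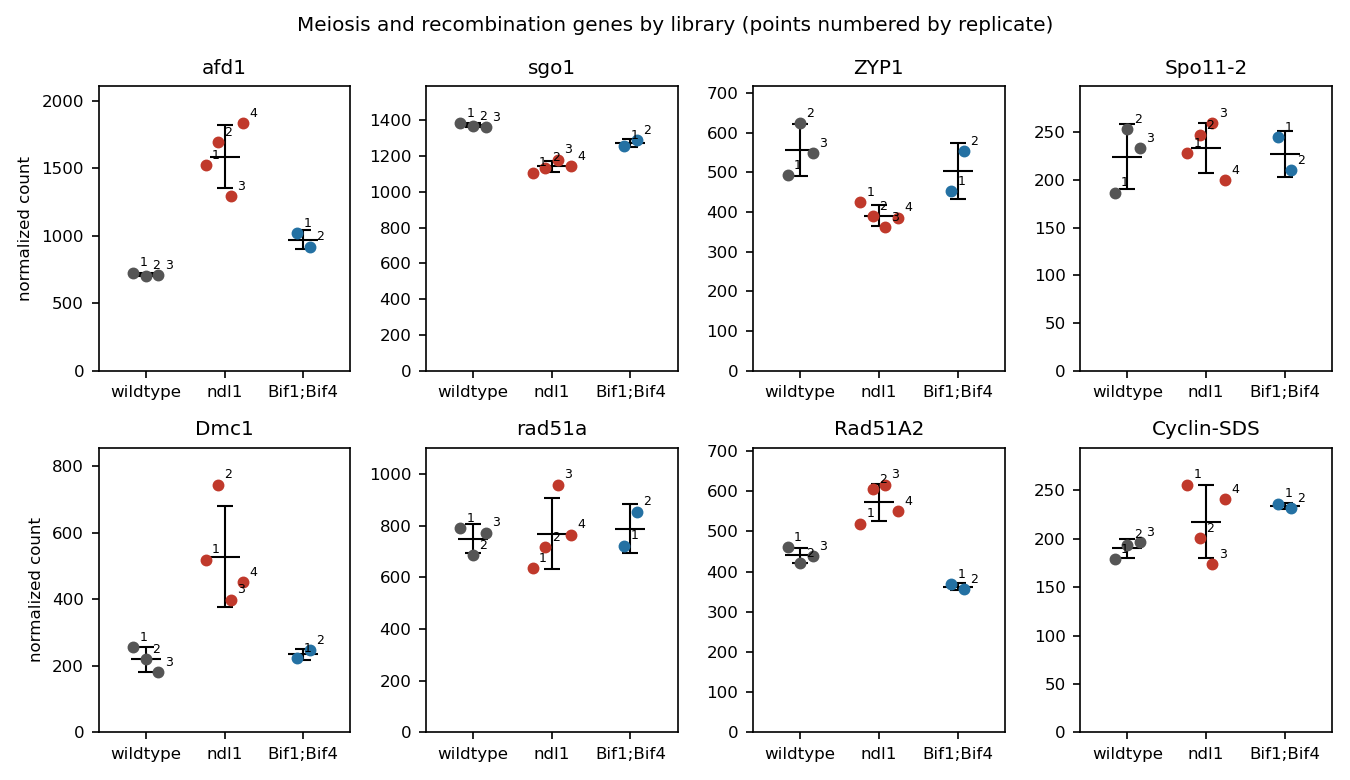
Normalized counts of the 8 genes in each of the 9 libraries, scaled together, on a vertical axis that starts at 0. Points are libraries numbered by replicate, and bars show the mean ± SD of a group (n = 3 wildtype, 4 ndl1, 2 Bif1;Bif4). For afd1 and Dmc1 every ndl1 point lies above every wildtype point, and for ZYP1 every ndl1 point lies below.

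The gene afd1 (absence of first division1) encodes the maize REC8 cohesin subunit, which holds sister chromatids and builds the chromosome axis in meiosis. With the 9 libraries scaled together it stood at 727, 705 and 709 normalized counts in wildtype replicates 1 to 3. In ndl1 replicates 1 to 4 it stood at 1524, 1692, 1296 and 1835, and in Bif1;Bif4 replicates 1 and 2 at 1020.2 and 920.2. The 3 groups did not overlap, with wildtype lowest, Bif1;Bif4 between and ndl1 highest. The log2 fold change was 1.14 ± 0.11 (SE) in ndl1 against wildtype (limma, Benjamini-Hochberg adjusted p = 0.00271, higher in 4 of 4 libraries), which ranked 49th by p among the genes tested. This rise passed without each of the 7 libraries in turn, with adjusted p from 0.00119 to 0.0292. In Bif1;Bif4 against wildtype it was 0.44 ± 0.08 (limma, Benjamini-Hochberg adjusted p = 0.0388, higher in 2 of 2 libraries). This smaller rise was lost without wildtype replicate 1 (limma, adjusted p = 0.0793) or 2 (0.150). In these 2 fits 492 genes and 1 gene of the whole table passed, against 957 with all libraries. The rise was also lost without Bif1;Bif4 replicate 1 or 2, which leaves 1 library in that group. Over all these fits the log2 fold change stayed between 0.36 and 0.51. The direct difference, ndl1 above Bif1;Bif4, was 0.70 ± 0.13 on the log2 scale (limma, Benjamini-Hochberg adjusted p = 0.0182), and without Bif1;Bif4 replicate 1 or 2 it no longer passed (adjusted p = 0.0996 and 0.190).

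The shugoshin gene sgo1, whose product shields cohesin at the centromere, passed in none of the 3 comparisons by limma. It stood at 1384, 1368 and 1363 normalized counts in wildtype, 1107, 1135, 1181 and 1146 in ndl1 and 1259 and 1289 in the double heterozygote. The groups again did not overlap, in the order opposite to afd1. In ndl1 the log2 fold change was -0.26 ± 0.06 (SE), just short of the threshold (limma, Benjamini-Hochberg adjusted p = 0.0573, 95% interval -0.40 to -0.13), and DESeq2 on the same reads called it (adjusted p = 0.00613). In the double heterozygote it was -0.11 ± 0.07 (limma, Benjamini-Hochberg adjusted p = 0.368), and between the mutants -0.16 ± 0.06 (adjusted p = 0.231). A lack of overlap is common in groups of this size. It held for 20.1% of all genes in ndl1 against wildtype, for 42.1% in Bif1;Bif4 against wildtype and for 27.8% between the mutants, beside 5, 4 and 5 of the 8 genes. The share of all genes that separate all 3 groups at once was not counted. In the wildtype values of the ndl1 table the SD of sgo1 was 9.23 normalized counts and that of afd1 11.5, below the 37.3 and 26.9 that counting reads alone gives.

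The ratio of afd1 to sgo1 reads within a library needs no scaling between libraries. The ratio has no length correction, so only its change between libraries is read. It was 0.526, 0.515 and 0.520 in wildtype, 1.38, 1.49, 1.10 and 1.60 in ndl1 and 0.810 and 0.714 in the double heterozygote. The lowest ndl1 library, replicate 3, lay above both Bif1;Bif4 libraries, and these lay above wildtype. The levels of afd1 and sgo1 separated the groups in opposite orders, which fixed this order of the ratio. The ratio is therefore no further support. The pair was chosen after the levels were seen and was not tested.

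Synapsis was represented by ZYP1, the gene of the transverse filament of the synaptonemal complex. It stood at 493, 624 and 548 normalized counts in wildtype, where replicate 2 was highest, and at 425, 389.6, 361 and 386 in ndl1. All 4 ndl1 libraries lay below wildtype, replicate 1 by the smallest margin. In the double heterozygote the values of 452 and 554 overlapped with wildtype. ZYP1 had a log2 fold change of -0.50 ± 0.10 (SE) in ndl1 (limma, Benjamini-Hochberg adjusted p = 0.0428, lower in 4 of 4 libraries). The call held without ndl1 replicate 2 (adjusted p = 0.0498). It was lost without ndl1 replicates 1, 3 and 4 (adjusted p = 0.0780, 0.0813 and 0.0691) and without wildtype replicates 1, 2 and 3 (0.0646, 0.207 and 0.0970). In the double heterozygote it was -0.15 ± 0.14 (limma, Benjamini-Hochberg adjusted p = 0.564, 95% interval -0.47 to 0.18), and between the mutants -0.36 ± 0.13 (adjusted p = 0.171), so that a difference between the mutants was not shown. The ratio of afd1 to ZYP1 reads was 1.48, 1.13 and 1.29 in wildtype and 3.59, 4.34, 3.59 and 4.76 in ndl1. In the double heterozygote it was 2.26 and 1.66. The groups did not overlap, but the level of afd1 alone separated them in this order, so the ratio is no further support. This pair too was chosen after the levels were seen and was not tested.

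Spo11-2, one of the genes whose products cut DNA to start meiotic recombination, did not pass in any comparison. It stood at 187, 253 and 233 normalized counts in wildtype, 228, 247, 259 and 199.7 in ndl1 and 244 and 210.4 in the double heterozygote. The 3 groups overlapped, and the lowest value was wildtype replicate 1. Its log2 fold change was 0.06 ± 0.14 (SE) in ndl1 (limma, Benjamini-Hochberg adjusted p = 0.837, 95% interval -0.27 to 0.39). In the double heterozygote it was 0.02 ± 0.17 (limma, Benjamini-Hochberg adjusted p = 0.951, 95% interval -0.37 to 0.42). The direct difference between the mutants was 0.03 ± 0.16 (limma, Benjamini-Hochberg adjusted p = 0.936). In the RefSeq annotation another gene overlaps Spo11-2, and another overlaps Cyclin-SDS, and although the libraries were stranded the strand setting of the counting is not given in the sources used here, so that reads of these 2 genes are uncertain.

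Of the 3 recombinase genes, Dmc1 rose in ndl1, and rad51a and Rad51A2 passed in neither comparison with wildtype. Dmc1, whose product pairs broken ends with the homologous chromosome, stood at 258, 220.1 and 180.5 normalized counts in wildtype and 519.9, 745, 399 and 452 in ndl1. Replicate 2 was the highest ndl1 library, and the lowest, replicate 3, still lay above all wildtype libraries. In the double heterozygote it stood at 223 and 247, within the wildtype range. Its log2 fold change in ndl1 was 1.24 ± 0.21 (SE; limma, Benjamini-Hochberg adjusted p = 0.0235, higher in 4 of 4 libraries). The call was lost without ndl1 replicate 1 (adjusted p = 0.0715) and without wildtype replicates 1, 2 and 3 (0.0570, 0.125 and 0.0730), with log2 fold changes from 1.11 to 1.36 in these 4 fits. Without ndl1 replicate 2, the highest library, it was 1.06 (adjusted p = 0.0156). In Bif1;Bif4 against wildtype the change was 0.10 ± 0.18 (limma, Benjamini-Hochberg adjusted p = 0.769, 95% interval -0.31 to 0.52). The direct difference, ndl1 above Bif1;Bif4, was 1.13 ± 0.23 (limma, Benjamini-Hochberg adjusted p = 0.0316), which was lost without Bif1;Bif4 replicate 1 (0.237) or 2 (0.183), ndl1 replicate 1 (0.0754) or wildtype replicate 2 (0.0620).

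**Figure D2:**
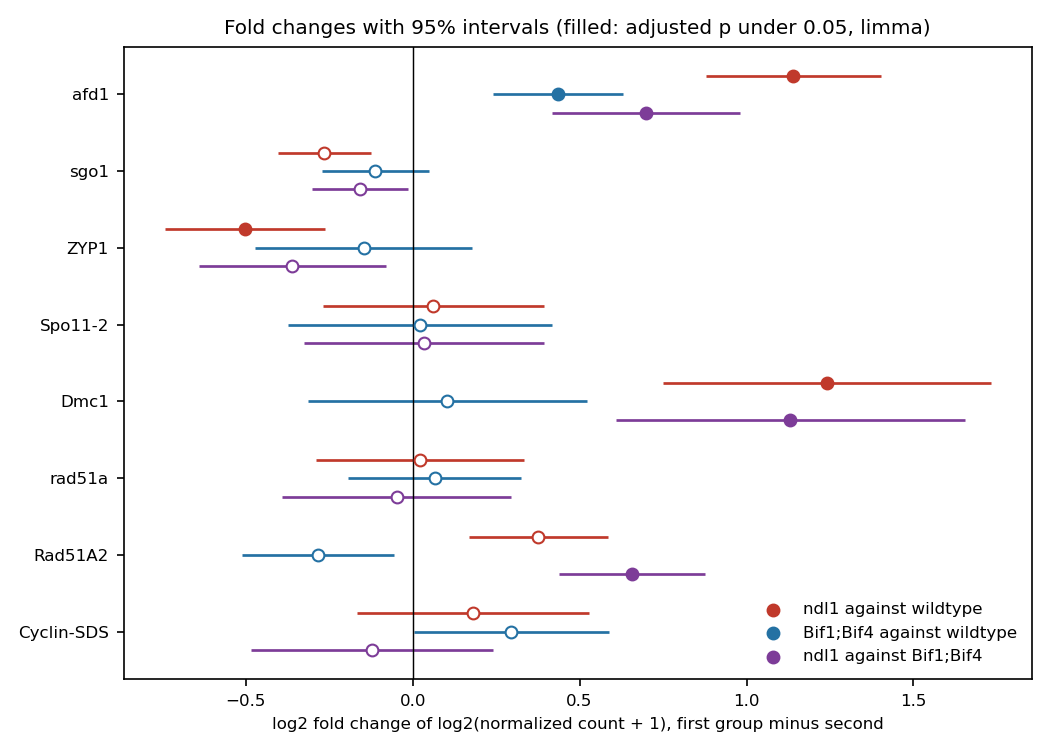
Log2 fold changes of the 8 genes in ndl1 against wildtype, Bif1;Bif4 against wildtype and ndl1 against Bif1;Bif4, with 95% intervals from limma. Filled points passed at an adjusted p under 0.05, which holds for afd1 in all 3 comparisons, for Dmc1 in 2, and for ZYP1 and Rad51A2 in 1 each.

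For the maize genes rad51a and Rad51A2, RefSeq lists the name Rad51A2 as a synonym of both, so that the identifiers decide here. Reads that fit both genes could have been assigned to either gene or dropped by the authors' counting, which makes the level of each uncertain. The gene rad51a (GRMZM2G121543) stood at 791, 688 and 773 normalized counts in wildtype, 635, 717, 959 and 766 in ndl1 and 723 and 855 in the double heterozygote. The groups overlapped, and ndl1 held both the lowest value, in replicate 1, and the highest, in replicate 3. Its log2 fold changes were 0.02 ± 0.14 (SE) in ndl1 (limma, Benjamini-Hochberg adjusted p = 0.943, 95% interval -0.29 to 0.33) and 0.07 ± 0.11 in the double heterozygote (adjusted p = 0.766, 95% interval -0.19 to 0.32). The intervals leave out changes of the size of Dmc1 in ndl1. Between the mutants the difference was -0.05 ± 0.15 (limma, Benjamini-Hochberg adjusted p = 0.903, 95% interval -0.39 to 0.29).

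Rad51A2 (GRMZM2G084762) separated the groups. It stood at 460.0, 421 and 439 normalized counts in wildtype, 519, 605, 616 and 549 in ndl1 and 368 and 356 in the double heterozygote. All ndl1 libraries lay above wildtype and both Bif1;Bif4 libraries below it. Against wildtype neither difference passed, with log2 fold changes of 0.38 ± 0.09 (SE) in ndl1 (limma, Benjamini-Hochberg adjusted p = 0.0635, 95% interval 0.17 to 0.58) and -0.28 ± 0.10 in the double heterozygote (adjusted p = 0.139, 95% interval -0.51 to -0.06). The direct difference between the mutants was 0.66 ± 0.10 and passed (limma, Benjamini-Hochberg adjusted p = 0.00725, rank 206 of 23203, ndl1 higher). It was lost without Bif1;Bif4 replicate 1 (adjusted p = 0.0636) or 2 (0.0936) and passed without each ndl1 and wildtype library. DESeq2 on the same reads called the difference from wildtype in ndl1 (adjusted p = 0.0134).

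Ratios within a library set the recombinase genes against each other without scaling. Reads of Rad51A2 per read of rad51a were 0.582, 0.612 and 0.568 in wildtype, 0.818, 0.843, 0.642 and 0.717 in ndl1 and 0.509 and 0.416 in the double heterozygote. The ratio was highest in ndl1 and lowest in the double heterozygote, with no overlap between the 3 groups. The level of Rad51A2 alone separated the groups in this order, so the ratio is no further support. Reads that fit both genes make this ratio uncertain too. Reads of Dmc1 per read of rad51a were 0.326, 0.320 and 0.233 in wildtype, 0.819, 1.04, 0.416 and 0.590 in ndl1 and 0.308 and 0.288 in the double heterozygote. Here ndl1 replicate 3, which had the most rad51a, came nearest to wildtype, and Bif1;Bif4 lay within the wildtype range. Reads of Dmc1 per read of Rad51A2 were 0.560, 0.523 and 0.411 in wildtype, between 0.648 (replicate 3) and 1.23 (replicate 2) in ndl1 and 0.605 and 0.693 in the double heterozygote. For this pair both Bif1;Bif4 libraries lay above wildtype and overlapped with ndl1. These ratios were chosen after the levels were seen and are given without a test.

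**Figure D3:**
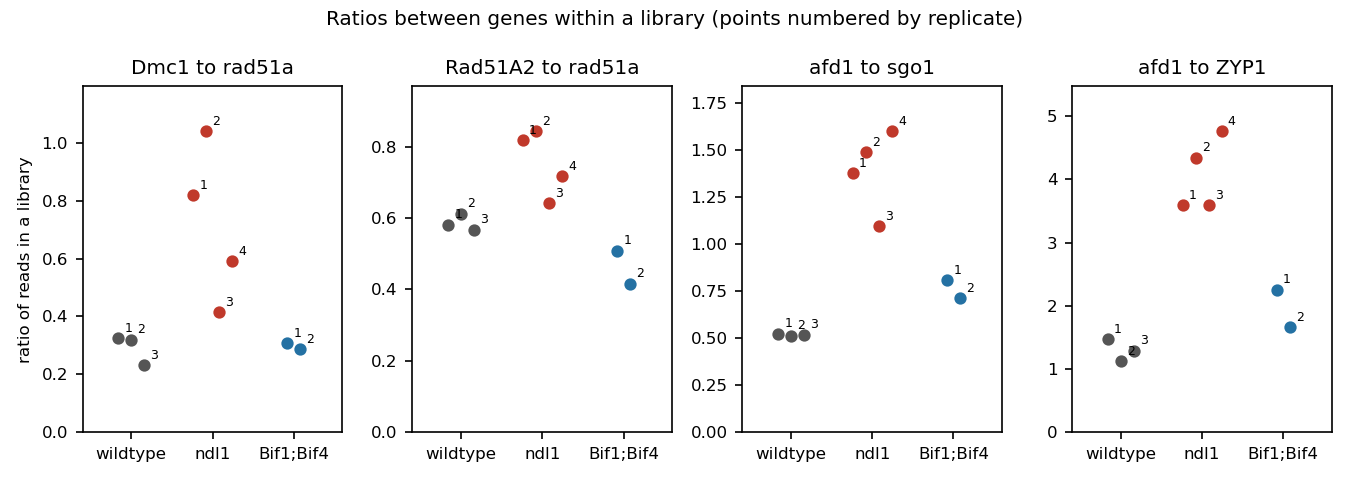
Ratios of reads between pairs of the 8 genes within each of the 9 libraries, on axes that start at 0, with points numbered by replicate. For Rad51A2 to rad51a, afd1 to sgo1 and afd1 to ZYP1 the 3 groups do not overlap, and for Dmc1 to rad51a Bif1;Bif4 lies within wildtype. The pairs were chosen after the levels were seen.

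Cyclin-SDS is named after SOLO DANCERS, a cyclin known from Arabidopsis to be needed for homologous pairing and for DMC1 loading. It stood at 179, 194 and 197 normalized counts in wildtype, 256, 200.4, 173 and 240.5 in ndl1 and 236 and 232 in the double heterozygote. The ndl1 libraries spread on both sides of wildtype, with replicate 3 lowest of all 9, while both Bif1;Bif4 libraries lay above wildtype. The log2 fold changes were 0.18 ± 0.15 (SE) in ndl1 (limma, Benjamini-Hochberg adjusted p = 0.519, 95% interval -0.17 to 0.53) and 0.30 ± 0.12 in the double heterozygote (adjusted p = 0.210), and neither passed. Between the mutants it was -0.12 ± 0.16 (limma, Benjamini-Hochberg adjusted p = 0.743).

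**Figure D4:**
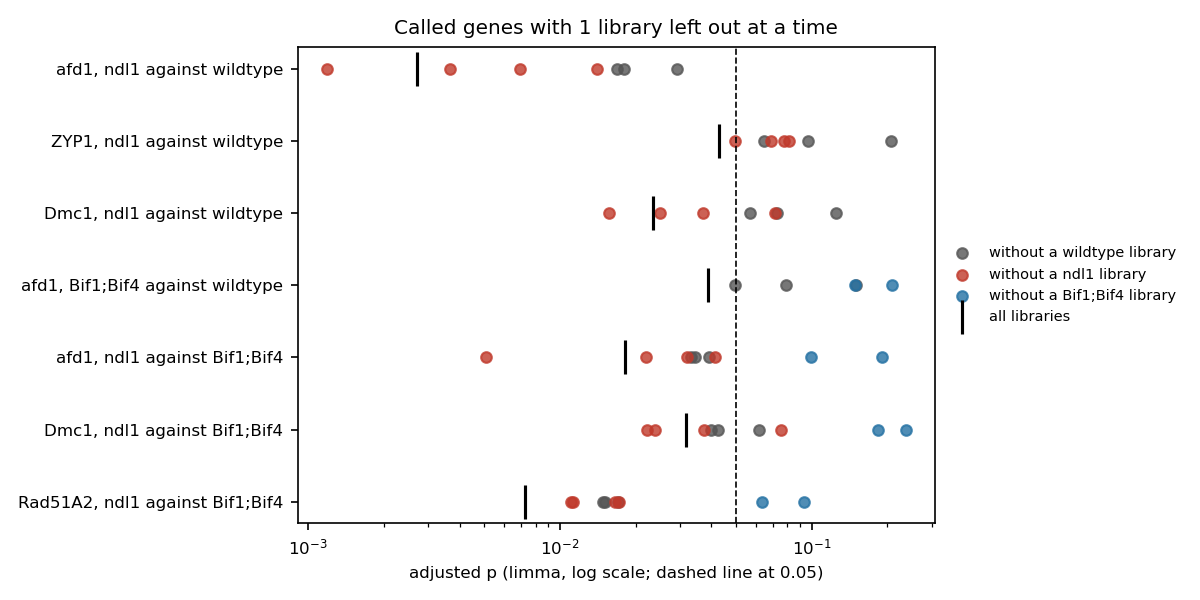
Limma adjusted p of each gene and comparison that passed with all libraries (black bars) and with 1 library left out at a time (points coloured by the group of the library left out), on a log axis with the threshold of 0.05 dashed. All 7 points of afd1 in ndl1 against wildtype lie under the threshold, and in the other 6 at least 2 points lie above it.

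In the authors' deposited tables, made with DESeq2, 5 of the 8 genes were past an adjusted p of 0.05 in ndl1 (afd1, sgo1, ZYP1, Dmc1 and Rad51A2) and 1 of the 8, afd1, in the double heterozygote. Of all genes with an adjusted p in the authors' deposited tables, 8.85% were past it in ndl1 and 8.78% in the double heterozygote. The authors' deposited table gave afd1 log2 fold changes of 1.09 in ndl1 and 0.41 in the double heterozygote, and gave Dmc1 1.07 in ndl1.

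Across the 9 libraries some pairs of the 8 genes varied together and others in opposite directions, given here as a description over 9 libraries that fall into 3 groups. Pearson's r of the log2 levels was 0.90 for afd1 and Dmc1, 0.80 for Dmc1 and Rad51A2 and 0.83 for sgo1 and ZYP1. It was -0.97 for afd1 and sgo1 and -0.86 for afd1 and ZYP1. For rad51a and Rad51A2 it was 0.10. Among 1805 other genes with a descriptive name and a mean of at least 50 normalized counts, those most like afd1 were BURP10 (GRMZM2G446170, r = 0.97) and SnRK2.11 (GRMZM2G063961, r = 0.95). Most like Dmc1 were EREB94 (GRMZM2G363052, r = 0.95), named as an ethylene-responsive element binding gene, and gpc4 (GRMZM2G176307, r = 0.95), a gene of the glycolytic enzyme glyceraldehyde-3-phosphate dehydrogenase. Most like Rad51A2 were NAC12 (GRMZM2G125777, r = 0.97) and vdac2 (GRMZM2G115049, r = 0.94), named for a voltage-dependent anion channel. Most like sgo1 were nfd110 (GRMZM2G032252, r = 0.98) and kin4 (GRMZM2G320689, also krp4, r = 0.96). For the other 4 genes the closest matches had r from 0.82 to 0.92.

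The meiosis list held 3 further genes, and none of these passed limma in any of the 3 comparisons (0 in each). SMC3, a cohesin subunit used in mitosis and meiosis, had a log2 fold change of -0.01 ± 0.09 (SE) in ndl1 and 0.07 ± 0.08 in the double heterozygote. PHS1 (poor homologous synapsis1), which acts in pairing in maize, was at 0.10 ± 0.11 and -0.11 ± 0.14. For am1, at 6 to 20 reads a library, the estimates were -0.39 ± 0.43 and 0.19 ± 0.37. Of 10 further genes of DNA replication, repair and somatic recombination, 0 rose or fell in any of the 3 comparisons, with medians of -0.17 in ndl1 and -0.16 in Bif1;Bif4 against 0.00 over all genes. The lowest adjusted p was that of PARP1, a poly(ADP-ribose) polymerase gene of the DNA damage response, at -0.37 ± 0.08 in ndl1 (limma, Benjamini-Hochberg adjusted p = 0.0536) and -0.30 ± 0.07 in the double heterozygote (adjusted p = 0.0689). The gene mre11A, of the complex that trims broken ends, was at -0.22 ± 0.07 and -0.26 ± 0.09 (adjusted p = 0.133 and 0.151). The sliding clamp genes pcna2 and PCNA, whose product serves DNA replication, were at -0.27 ± 0.19 and 0.15 ± 0.12 in ndl1 and at -0.29 ± 0.10 and -0.12 ± 0.10 in the double heterozygote. The topoisomerase gene Top1 was at -0.05 ± 0.07 and -0.19 ± 0.08, and GRMZM2G124718, 1 of 2 identifiers named PARP2, at -0.13 ± 0.12 and 0.11 ± 0.14.

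Marker genes of other tissues were read beside these genes, and most did not pass. Over all genes tested, 1.94% rose and 1.22% fell in ndl1, and 2.23% rose and 2.05% fell in the double heterozygote. Of 15 meristem genes, whose summed level was 20242 to 22444 normalized counts in wildtype, 14124 to 18919 in ndl1 and 16367 to 16917 in the double heterozygote, 1 fell in ndl1 and 2 in the double heterozygote, and 13 and 11 had negative log2 fold changes (medians -0.34 and -0.44). The gene that fell in ndl1 was TD1, which encodes a receptor-like kinase restraining meristem growth (-1.56 ± 0.25). TD1 also fell in the double heterozygote (-1.40 ± 0.19). Of 8 vascular and secondary wall genes, 2 identifiers of cesa11 had no read in any library. The other 6 had medians of 0.69 in ndl1 and 1.03 in the double heterozygote, and in ndl1 ccr2 rose and cad1 fell. Of the 6, 1 rose in the double heterozygote, CCR (1.04 ± 0.21, GRMZM2G131205, named after its value was seen). Log2 fold changes were positive for 5 of the 6 in each mutant, and negative for cad1. The summed level of the list was 793.6 to 990.1 in wildtype and 592 to 842 in ndl1. In the double heterozygote it was 903 to 1093, and both mutants overlapped with wildtype. Most of the wildtype sum was cad1, at a mean of 713 normalized counts in wildtype and 338 in ndl1. The sum therefore does not describe the other genes. The part of these tissues in the changes of afd1, Dmc1 and ZYP1 was not tested. In these bulk samples more cells with a transcript and more transcript per cell cannot be told apart.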

How the data were processed

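The authors' deposited tables, 1 for each mutant against wildtype, hold 1 column of signal values per library. The file headers call these deposited columns counts, but their values are not whole and are reads divided by a size factor per library, as read from the values. Each table also holds what the authors deposited from DESeq2, namely a log2 fold change with its standard error, a test statistic (a score), a p-value and its adjusted form. The submitters' processing notes list Trimmomatic, TopHat2 2.1.1, HTSeq and DESeq2. Build, annotation and strand setting were not given in the sources used here. Dividing by the value of 1 read gave a whole number, within 0.1 reads, for 100% of values in all libraries, and the wildtype libraries gave identical reads in each table (0 genes differing).

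Genes were filtered with edgeR's filterByExpr (minimum count 10), and log2(normalized count + 1) of each table's deposited values was tested with limma 3.58.1, run in R 4.3.3, letting the variance follow a trend over intensity. The direct comparison of the mutants used the recovered reads of all 9 libraries, scaled together by DESeq2 size factors. The levels printed are on that scale, except those of wee1 and cad1 and the SDs of sgo1 and afd1. These are on the deposited scale of the comparison with wildtype. The added 1 shrinks changes of low genes. edgeR 4.0.16 and DESeq2 1.42.0 on the recovered reads, TMM scaling, other pseudocounts and filters, a replicate block and leaving out each library were alternatives. The procedure was also run on simulated counts, in which genes varied independently of each other within a library. Its outcome is not given here. No library was a copy of another (between replicates, chi-square divided by its degrees of freedom was 9.80 to 40.1). Names came from the RefSeq table of Zm-B73-REFERENCE-NAM-5.0, in which all 8 genes matched 1 gene each. Of all identifiers 18476 matched 1 gene. Named beside the 8 genes were up to 6 genes of the meiosis and repair lists with the lowest adjusted p, examples from the other lists, and the 2 genes most like each. The genes and lists were chosen with earlier results of these data known, and 6 names wrongly caught by list patterns were removed by name. Levels of different genes were not compared, since lengths were not used.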

Additional observations from a re-analysis of the deposited data

How the results depend on the processing

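Each comparison was recomputed under 10 alternatives and without each library in turn. edgeR, TMM scaling, the other pseudocounts and the other filters kept the number of the 8 genes called in each comparison. DESeq2 called 2210, 2105 and 1628 genes in ndl1 against wildtype, Bif1;Bif4 against wildtype and ndl1 against Bif1;Bif4, where limma called 708, 957 and 806. In ndl1, DESeq2 called 5 of the 8 genes, adding sgo1 at -0.26 (adjusted p = 0.00613) and Rad51A2 at 0.38 (adjusted p = 0.0134). All 9 libraries in 1 fit called 1047 genes in ndl1 and 639 in Bif1;Bif4. That fit also called 5 of the 8 in ndl1, with sgo1 at -0.26 (adjusted p = 0.0332) and Rad51A2 at 0.38 (adjusted p = 0.0420), and 0 in Bif1;Bif4, with afd1 at 0.44 (adjusted p = 0.113). Without the intensity trend ZYP1 in ndl1 was -0.50 (adjusted p = 0.0687), afd1 in Bif1;Bif4 0.44 (adjusted p = 0.105) (0 of the 8 called, 256 of all genes) and Dmc1 between the mutants 1.13 (adjusted p = 0.0649). With the mutant libraries alone 363 genes and 1 of the 8 passed, with afd1 at 0.70 (adjusted p = 0.0721) and Dmc1 at 1.13 (adjusted p = 0.0775).

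Replicate numbers were shared across groups. Deviations from the group mean had r of -0.107, 0.217 and -0.00751 for same-numbered ndl1 and wildtype libraries. For differently numbered ones r ran from -0.539 to 0.384. The numbers were therefore not taken as pairs. For Bif1;Bif4 and wildtype r was -0.217 and -0.172. With 2 libraries the deviations of Bif1;Bif4 mirror each other, so these values cannot decide on pairing. With a replicate block 365, 431 and 336 genes passed, and 2, 0 and 1 of the 8. Under the block ZYP1 in ndl1 was -0.50 (adjusted p = 0.118), afd1 in Bif1;Bif4 0.43 (adjusted p = 0.102), Dmc1 in Bif1;Bif4 -0.031 (adjusted p = 0.941), and between the mutants afd1 0.68 (adjusted p = 0.0514) and Rad51A2 0.65 (adjusted p = 0.0596). In ndl1 these block estimates equal those without ndl1 replicate 4, which has no same-numbered wildtype library (ZYP1 at -0.497 in both fits). In Bif1;Bif4 they equal those without wildtype replicate 3, which has no same-numbered Bif1;Bif4 library (afd1 at 0.428 in both fits). The cause of the shifts between the mutants was not tested.

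Without each library in turn, 111 to 1467 genes passed in ndl1 against wildtype, 1 to 1299 in Bif1;Bif4 against wildtype and 152 to 897 between the mutants, and 1 to 3, 0 to 1 and 0 to 3 of the 8. Log2 fold changes in ndl1 ranged from -0.58 to -0.42 for ZYP1, 1.06 to 1.36 for Dmc1, -0.064 to 0.15 for Spo11-2, -0.090 to 0.11 for rad51a and 0.097 (without ndl1 replicate 1) to 0.28 (without ndl1 replicate 3) for Cyclin-SDS. In Bif1;Bif4 they ranged from 0.36 to 0.51 for afd1, -0.031 to 0.23 for Dmc1, -0.10 to 0.13 for Spo11-2, -0.056 to 0.19 for rad51a and -0.29 (without Bif1;Bif4 replicate 2) to -0.0014 (without replicate 1) for ZYP1. Between the mutants they ranged from 0.63 to 0.79 for afd1, 0.95 to 1.25 for Dmc1, 0.62 to 0.70 for Rad51A2, -0.073 to 0.14 for Spo11-2, -0.17 to 0.073 for rad51a, -0.51 (without Bif1;Bif4 replicate 1) to -0.22 (without replicate 2) for ZYP1 and -0.20 (without ndl1 replicate 1) to -0.018 (without ndl1 replicate 3) for Cyclin-SDS. Leaving out 1 Bif1;Bif4 library leaves 1, which is assumed to vary like the other groups. Orders of level per length and promoter motifs were not run. All calls rest on 2 to 4 libraries a group. Of the 7 calls among the 8 genes only that of afd1 in ndl1 against wildtype passed without each library. The share of all called genes that did so was not counted. Without wildtype replicate 2, 111 genes passed in ndl1 and 1 in Bif1;Bif4, against 708 and 957 with all libraries. A lost call is therefore not particular to these genes.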

Other observations

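Cell cycle and histone genes were also read by name. The cell cycle list includes genes that hold back division, such as wee1, and the share of dividing cells was not tested. Of 28 cell cycle genes 0 passed in ndl1 by limma and 1 fell in Bif1;Bif4, the kinase gene wee1, which holds cells before mitosis (-0.62 ± 0.09 on the log2 scale, SE; limma, Benjamini-Hochberg adjusted p = 0.0203, 702.7 and 726 normalized counts against 1037 to 1192 in wildtype). In ndl1 22 of the 28 log2 fold changes were negative (median -0.13), and in Bif1;Bif4 17 (median -0.10). Of 9 histone genes 0 passed in ndl1 and 3 fell in Bif1;Bif4, with medians of -0.27 and -0.32. Their summed level spread over 37912 to 78482 normalized counts in ndl1, wider than the 61028 to 64186 of wildtype and the 53162 to 55305 of Bif1;Bif4. Of 39 MADS box genes, which include regulators of floral organs, 0 rose and 4 of 22 tested fell in ndl1, and 2 rose and 6 of 25 tested fell in Bif1;Bif4. Of 21 photosynthesis genes, 1 of 9 tested rose in ndl1 and 1 of 10 in Bif1;Bif4. Beside these lists, 1.94% of all genes tested rose and 1.22% fell in ndl1. In Bif1;Bif4 2.23% rose and 2.05% fell.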
